A study of Mus musculus with 6 samples.

Results

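Described here are 10 genes of the Wnt pathway, chosen by symbol: the ligand Wnt5a, the receptors Ror2 and Fzd7, the feedback inhibitors Rnf43, Nkd1 and Axin2, the effector Ctnnb1, which encodes beta-catenin, and the TCF/LEF factors Tcf7, Tcf7l2 and Lef1. All 10 symbols were found among the 23951 genes of the deposited table. RNA was sequenced from 3 untreated mouse melanoma lines, with 2 libraries per line: B16-F1, a line of low metastatic potential bought from a repository (ATCC); B16-F1R2, which was derived from a lymph node metastasis; and B16-F1R2L, which came from a metastasis in the lung that itself arose from one in a lymph node. The labels name no treatment and no genetic change for any line, and all grew in the same medium. The repository supplied B16-F1 while a research group supplied B16-F1R2 and B16-F1R2L, and in each contrast with B16-F1 the line cannot be told apart from its source. The sources do not say that the 2 libraries of each line stem from separate cultures, and p-values then measure only the spread between these libraries, which may be technical.

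Wnt proteins are secreted ligands that bind Frizzled receptors together with LRP5 or LRP6 at the cell surface. Without ligand, a complex built on Axin and APC, with the kinases GSK3 and CK1, marks beta-catenin for destruction. With ligand, beta-catenin accumulates, enters the nucleus and turns on genes together with TCF/LEF factors, and several of those genes, such as Axin2, Nkd1 and Rnf43, dampen the signal in return. In melanoma this canonical arm is tied to the melanocytic program and to Mitf, while Wnt5a with its receptor Ror2 forms a beta-catenin-independent arm known from invasive, less pigmented melanoma cells. Beta-catenin is controlled mostly as a protein, so transcript levels show the parts of the pathway and not its activity.

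Values are FPKM, fragments scaled by transcript length and by the number of mapped reads, a scale per length on which levels of different genes can be set side by side. FPKM summed to between 596657 and 672794 per library, and 10617 to 11168 genes reached 1 FPKM. The melanocyte identity was present in every library: all 7 melanocyte markers (Mitf, Sox10, Mlana, Pmel, Tyr, Tyrp1 and Dct) exceeded 1 FPKM, and their summed FPKM came to 14970 and 15007 for B16-F1, then 8125 and 7909 for B16-F1R2 and lastly 8933 and 8924 for B16-F1R2L. Keratinocyte and lung epithelium markers stayed under 1 FPKM in every library. Immune markers summed to at most 4.18 FPKM with Ptprc, Cd3e and Itgam listed at 0, and endothelial markers to at most 2.38 FPKM with Cdh5, Kdr and Lyve1 listed at 0. The immune marker Cd68 had 1.02 and 1.76 FPKM in B16-F1 and 0.983 to 2.67 in the variants. It was not called against B16-F1 (log2 fold change 0.02 and 0.32, adjusted p = 0.974 and 0.599, limma). Of the endothelial markers, Pecam1 was listed at 0 in B16-F1 and stood at 0.752 to 1.26 FPKM in the variants. Lyz2, an immune marker, had 0.170 and 0.625 FPKM in B16-F1 and 0.916 to 2.05 in the variants. The endothelial marker Prox1 fell in both variants (-0.84 and -0.49, adjusted p = 0.00572 and 0.043, limma). Fibroblast markers summed to 0.962 and 1.19 FPKM for B16-F1, then 18.1 and 18.3 for B16-F1R2 (Col1a1 alone 16.8 and 17.1) and lastly 4.67 and 4.49 for B16-F1R2L, while Dcn, Lum and Thy1 were listed at 0 throughout. Col1a2 had 0.635 and 0.742 FPKM in B16-F1 and was highest in B16-F1R2L, at 1.77 and 2.17 FPKM. Col1a1, Col1a2, Pecam1 and Lyz2 reached 1 FPKM in the variants only, so these values are given without a test. The melanocyte sum, Col1a1, Col1a2, Pecam1, Lyz2 and Prox1 thus moved with the lines, and their part in the results that follow was not tested. Single melanocyte markers did not move alike. In B16-F1R2 and B16-F1R2L against B16-F1, the log2 fold change was -3.70 and -2.99 for Tyr and -0.46 and -0.39 for Sox10. For Mitf it was -0.15, without a call, and 0.40.

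For the genes that differed between lines, the promoter windows of Ctnnb1, Axin2, Tcf7 and Fzd7 are printed here. The windows run from 250 bases before to 50 bases after the transcription start listed for each. They are RefSeq sequences of the build GRCm38.p6, which is not the mm9 build of the FPKM, and for genes with several windows the first one listed is given. Capitals mark the letters CTTTG followed by 2 bases that are each A or T, searched on both strands, a core that TCF/LEF factors are known to bind. No window of the 10 genes held more than 1 match, so none overlapped.
Ctnnb1, chr9:120933150-120933449, plus strand: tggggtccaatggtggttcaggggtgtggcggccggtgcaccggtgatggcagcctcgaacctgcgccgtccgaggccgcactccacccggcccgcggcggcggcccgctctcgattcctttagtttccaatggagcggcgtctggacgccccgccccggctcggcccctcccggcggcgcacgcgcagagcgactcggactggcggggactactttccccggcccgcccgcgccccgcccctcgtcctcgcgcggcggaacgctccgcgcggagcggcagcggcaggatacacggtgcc
Axin2, chr11:108920099-108920398, plus strand: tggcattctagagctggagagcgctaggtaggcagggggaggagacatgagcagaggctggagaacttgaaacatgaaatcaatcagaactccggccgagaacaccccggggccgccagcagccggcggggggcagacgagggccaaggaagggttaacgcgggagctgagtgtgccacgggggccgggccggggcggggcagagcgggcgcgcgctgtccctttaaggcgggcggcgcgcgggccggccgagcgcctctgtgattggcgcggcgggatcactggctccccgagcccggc
Tcf7, chr11:52282965-52283264, minus strand: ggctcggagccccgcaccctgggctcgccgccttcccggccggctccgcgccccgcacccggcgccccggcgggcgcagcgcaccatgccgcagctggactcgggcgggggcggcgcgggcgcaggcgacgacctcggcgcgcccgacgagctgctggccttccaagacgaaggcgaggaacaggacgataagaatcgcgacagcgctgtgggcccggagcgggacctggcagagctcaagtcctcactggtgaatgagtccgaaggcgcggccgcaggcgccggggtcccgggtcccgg
Fzd7, chr1:59481897-59482196, plus strand: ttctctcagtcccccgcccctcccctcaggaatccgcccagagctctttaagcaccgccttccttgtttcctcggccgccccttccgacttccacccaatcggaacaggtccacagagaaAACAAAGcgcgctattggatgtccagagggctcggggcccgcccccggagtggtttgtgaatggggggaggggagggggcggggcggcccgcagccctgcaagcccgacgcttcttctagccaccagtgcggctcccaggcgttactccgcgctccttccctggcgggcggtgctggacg
Of these 4 windows, that of Fzd7 held the letters, with the match at position -130 from the transcription start. Across the 16 windows found for 9 of the 10 genes (none for Wnt5a), 3 held them, at Fzd7 and in 1 window each of Lef1 and Tcf7l2, against 16.9% of all 32851 windows of the same length. The windows of Ctnnb1, Axin2, Tcf7 and Fzd7 held 46, 31, 45 and 24 CG dinucleotides, against a median of 7 over all windows. In the Tcf7 window an open reading frame runs from an atg before the listed start to the window's end. Its letter search and CG count may therefore describe coding sequence of a longer transcript and not sequence upstream of the gene. A match of letters is a description of the window and not a binding site.

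The 10 genes fell into a detected and a near-silent set. Ctnnb1, Fzd7, Axin2, Tcf7l2 and Tcf7 stood at 1 FPKM or more in all 6 libraries, whereas Wnt5a, Ror2, Nkd1, Rnf43 and Lef1 never reached 0.1 FPKM. The range within the detected set was wide. In B16-F1 the order of mean levels was Ctnnb1, Fzd7, Axin2, Tcf7l2 and Tcf7, and no neighbours in this order overlapped between libraries. In B16-F1R2 the mean of Tcf7, 3.10 ± 0.028 FPKM (SD, n = 2), stood above that of Tcf7l2, 2.98 ± 0.25, but within the spread of the latter, and Axin2 came last of the detected genes with 2.49 ± 0.15. In B16-F1R2L the order was Tcf7 with 3.11 ± 0.042, Axin2 with 3.03 ± 0.41 and Tcf7l2 with 2.44 ± 0.21 FPKM, and again the libraries of Tcf7 and Axin2 overlapped. Tcf7 was thus the lowest of the 5 detected genes in B16-F1 but not in the variants.

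**Figure D1:**
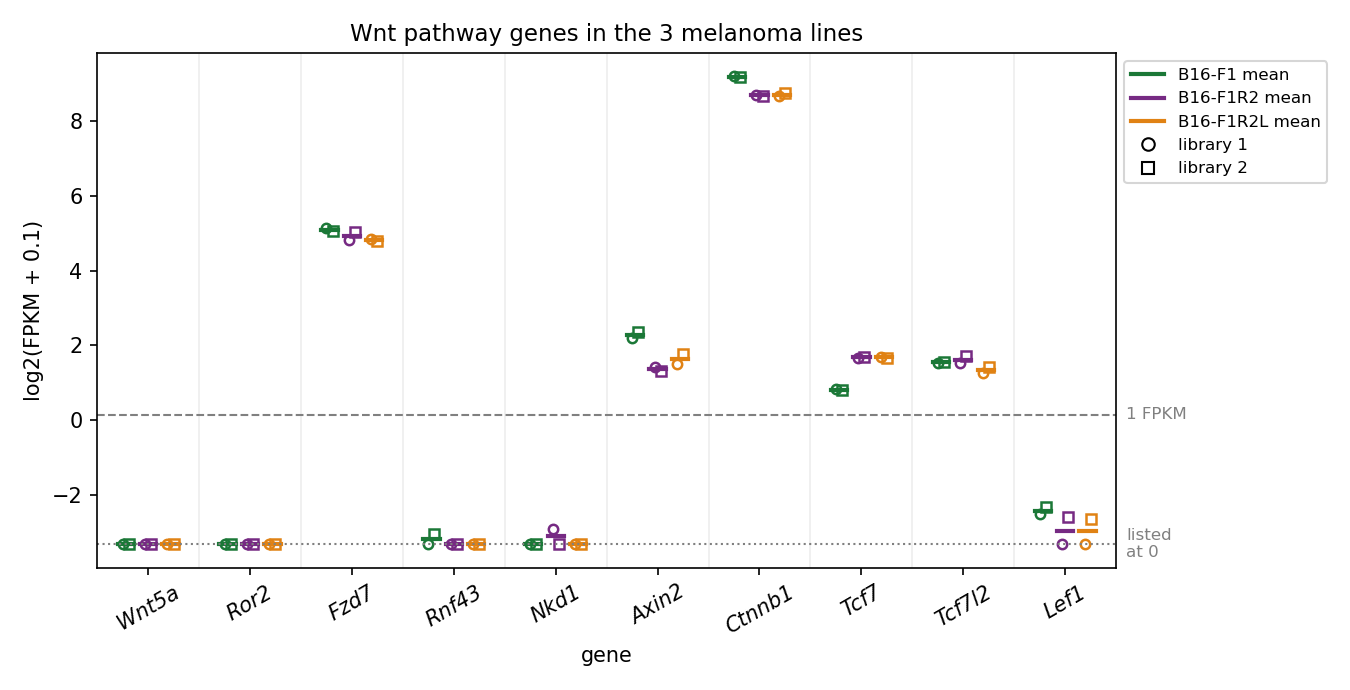
Level of each of the 10 Wnt genes on the scale log2(FPKM + 0.1) (vertical axis) in every library, with genes ordered from ligand to transcription factors; circles and squares are libraries 1 and 2 of a line and bars their mean. Ctnnb1 stands highest, from 410.5 to 588 FPKM, and Wnt5a and Ror2 lie on the line of genes listed at 0 in all libraries.

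Differences between lines are given as log2 fold changes of FPKM + 0.1 and were tested with limma, a linear model whose estimate of the spread is shared across genes, over the 11379 genes that reached 1 FPKM in 2 or more libraries, and p-values were adjusted over all of them by the method of Benjamini and Hochberg with a threshold of 0.05. Because 0.1 is added, changes of low genes come out smaller on this log2(FPKM + 0.1) scale than they would without it. For 1 gene alone, permuting 2 against 2 libraries exactly gives a two-sided p of 0.333 at best, so each call rests on the pooled spread. Of the 10 genes, the 5 detected ones entered this test and the 5 near-silent ones did not. In bulk RNA, fewer cells of a type and less RNA per cell cannot be told apart.

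Between B16-F1R2 and B16-F1, Tcf7 rose and Ctnnb1 and Axin2 fell among the 5 genes tested, while Fzd7 and Tcf7l2 did not pass the threshold. Over all genes tested, 55.4% passed it in this comparison, 28.2% as higher and 27.2% as lower, so 3 calls among 5 genes lie close to the background. The libraries of the lines did not overlap at 4 of the 5 genes (all but Tcf7l2), against 80.0% of all genes tested.

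Ctnnb1 was the most abundant of the 10 genes. The gene spans 120838334 to 120869625 on chromosome 9 (plus strand) in NCBIM37, the assembly also called mm9, with 13 annotated transcripts, and 240 of its 5099 exonic bases overlap exons of Ulk4 on the other strand. B16-F1 gave 588 and 584 FPKM, B16-F1R2 419.8 and 410.5, and B16-F1R2L 411 and 429. Both variants lay below both B16-F1 libraries. The log2 fold change against B16-F1 was -0.50 in B16-F1R2 (standard error 0.044, adjusted p = 0.000201, limma) and -0.48 in B16-F1R2L (standard error 0.044, adjusted p = 0.000232, limma). Between the variants it was 0.02, with a 95% interval from -0.09 to 0.12. Even at the lower level, Ctnnb1 ranked between 209 and 254 among all genes of the table in the variants, against 167 and 171 in B16-F1.

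Axin2, the scaffold of the destruction complex that is itself induced by beta-catenin, fell in both variants. The gene lies on chromosome 11 (plus strand, 108781663 to 108812097 of NCBIM37), and 209 of its 5506 exonic bases overlap exons of Gm11670 on the other strand. B16-F1 gave 4.48 and 4.99 FPKM, B16-F1R2 2.60 and 2.38, and B16-F1R2L 2.74 and 3.32. No library of either variant reached the lower B16-F1 value. The log2 fold change was -0.90 for B16-F1R2 (standard error 0.13, adjusted p = 0.0015, limma) and -0.63 for B16-F1R2L (adjusted p = 0.00658, limma). The B16-F1R2L libraries lay above those of B16-F1R2, with a log2 difference of 0.27 that did not pass the threshold (95% interval -0.04 to 0.58, adjusted p = 0.176, limma). Axin1, the constitutive scaffold of the same complex, also fell, with 21.9 and 22.1 FPKM in B16-F1 and 14.0 to 16.3 in the variants (log2 fold change -0.54 and -0.51, adjusted p = 0.00209 and 0.00266, limma).

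Tcf7, which encodes the factor TCF1, was the only one of the 5 tested genes that rose. It lies on the minus strand of chromosome 11, from 52065873 to 52096681 of NCBIM37, and shares no exonic base with another annotated gene. B16-F1 gave 1.69 and 1.63 FPKM, B16-F1R2 3.09 and 3.12, and B16-F1R2L 3.14 and 3.08. All 4 variant libraries lay above both B16-F1 libraries and within 0.1 FPKM of each other. The log2 fold change was 0.86 in B16-F1R2 (standard error 0.10, adjusted p = 0.000678, limma) and 0.87 in B16-F1R2L (adjusted p = 0.000672, limma). Between the variants it was 0.00, with a 95% interval from -0.25 to 0.25.

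Tcf7l2, which encodes the factor TCF4 and has 24 annotated transcripts on chromosome 19 (plus strand, 55816300 to 56008144), gave no call. B16-F1 gave 2.79 and 2.83 FPKM, B16-F1R2 2.80 and 3.16, and B16-F1R2L 2.29 and 2.59. The values of B16-F1R2 overlapped those of B16-F1, and those of B16-F1R2L lay below both other lines. The log2 differences were 0.08 for B16-F1R2 against B16-F1 (95% interval -0.21 to 0.36), -0.20 for B16-F1R2L against B16-F1 (-0.48 to 0.09) and -0.27 for B16-F1R2L against B16-F1R2 (-0.56 to 0.01, adjusted p = 0.143, limma). After quantile normalization the first became -0.12, and the other 2 passed the threshold with -0.59 and -0.47 (adjusted p = 0.0051 and 0.0337, limma).

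Fzd7, a Frizzled receptor for Wnt ligands encoded in a single exon on chromosome 1 (plus strand, 59538991 to 59543791), stood at 35.0 and 33.4 FPKM in B16-F1. The B16-F1R2 libraries held 28.1 and 32.7 FPKM, and those of B16-F1R2L 28.6 and 27.8. Library 2 of B16-F1R2 came close to B16-F1, while the other 3 variant libraries lay together below. The log2 difference was -0.17 for B16-F1R2 (95% interval -0.36 to 0.01, adjusted p = 0.0959, limma). Without library 2 of B16-F1R2 it was -0.28, and without library 1 of B16-F1R2 it was -0.07. B16-F1R2L was lower than B16-F1, with a log2 difference of -0.28 (standard error 0.076, adjusted p = 0.0206, limma). That call was lost without library 1 of B16-F1 (adjusted p = 0.0976, limma), without library 1 (0.0549) or library 2 (0.0842) of B16-F1R2L, and when FPKM were rescaled to a common sum of 1000000 (log2 fold change -0.18, adjusted p = 0.159, limma).

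**Figure D2:**
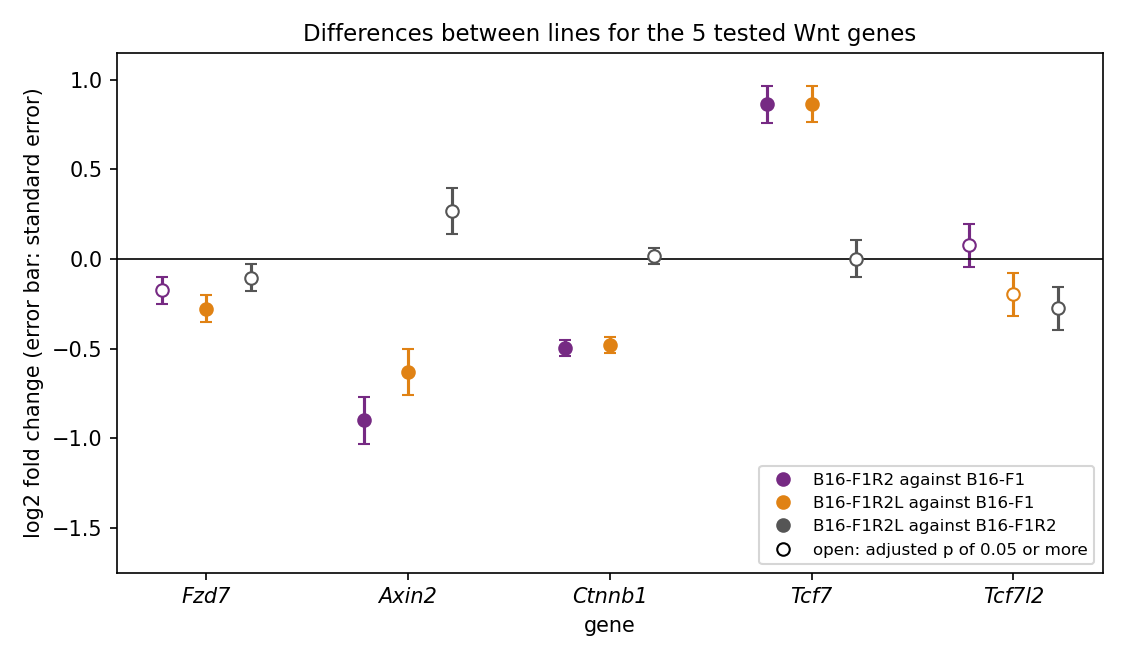
Log2 fold change (vertical axis, on the log2(FPKM + 0.1) scale) of the 5 tested Wnt genes in the 3 comparisons of lines; error bars are standard errors from limma with 2 libraries per line, and filled points passed the threshold. Ctnnb1 and Axin2 lie below 0 and Tcf7 above 0 in both variants against B16-F1, and all 5 points between the variants are open.

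Lef1, which encodes the TCF/LEF factor known from melanocytes and melanoma, was barely detected. B16-F1 gave 0.0737 and 0.0994 FPKM, B16-F1R2 0 and 0.0647, and B16-F1R2L 0 and 0.0609. For its longest annotated transcript 1 read was worth an estimated 0.0184 to 0.0218 FPKM, so these values correspond to few reads. Rnf43, the ubiquitin ligase that removes Frizzled receptors from the surface, was listed at 0 in all libraries but library 2 of B16-F1, where it had 0.0196 FPKM, about the worth of a single read. Nkd1, a feedback inhibitor that binds Dishevelled, was listed at 0 in all libraries but library 1 of B16-F1R2, with 0.0335 FPKM. Wnt5a (chromosome 14, plus strand, 29317936 to 29340633) and Ror2 (chromosome 13, minus strand, 53204681 to 53381493) were listed at 0 in all 6 libraries, with 1 read worth 0.00961 to 0.0114 and 0.0169 to 0.02 FPKM. For these 5 genes a difference between lines was not detectable at this depth. Of the 50-base stretches in their protein-coding transcripts and in those of the other 5 genes, none occurs in a protein-coding transcript of another gene.

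B16-F1R2L against B16-F1 gave 1 gene higher (Tcf7) and 3 lower (Ctnnb1, Axin2 and Fzd7) of the 5 tested, where 56.7% of all genes tested passed the threshold, 29.5% as higher and 27.1% as lower. At each of the 5 genes the libraries of the 2 lines were without overlap, against 80.8% of all genes tested. Both comparisons with B16-F1 share its 2 libraries. Between the 2 variants, none of the 5 genes was called by limma at the adjusted threshold and none had an unadjusted p under 0.05. In that comparison 22.6% of all genes tested were called, 12.1% as higher and 10.5% as lower in B16-F1R2L, and the libraries did not overlap at 2 of the 5 genes (Axin2 and Tcf7l2), against 65.2% of all genes.

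Within the TCF/LEF family the composition of the transcripts can be read per length. Lef1, Tcf7, Tcf7l1 and Tcf7l2 together reached 12.8 and 13.0 FPKM for B16-F1, then 17.5 and 18.7 for B16-F1R2 and lastly 17.3 and 16.4 for B16-F1R2L. Tcf7l1, which encodes TCF3, a factor that mostly represses Wnt targets, held 64.5% to 68.6% of this sum in every library. Tcf7 held 13.2% and 12.6% in B16-F1 and between 16.7% and 18.7% in the variants, and Tcf7l2 held 21.7% and 21.8% against 13.2% to 16.9%. Neither share overlapped between B16-F1 and the variants. Tcf7l2 stood above Tcf7 in both B16-F1 libraries and in library 2 of B16-F1R2 (16.9% against 16.7%), and below it in the other 3 variant libraries. Tcf7l1 itself rose, with 8.28 and 8.43 FPKM in B16-F1 against 11.6 and 12.3 in the B16-F1R2 libraries and 11.9 and 10.7 in those of B16-F1R2L (log2 fold change 0.51 and 0.43, adjusted p = 0.00159 and 0.00332, limma).

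Among the 10 Frizzled genes, Fzd7 held the largest share of the summed FPKM in every library, at 58.4% and 56.8% for B16-F1, 48.4% and 51.4% for B16-F1R2, then 46.8% and 45.9% for B16-F1R2L. The sum itself lay between 58.2 and 63.6 FPKM, both of them B16-F1R2 libraries, with the other lines in between. Fzd2, the next but one in abundance, rose: B16-F1 had 4.94 and 4.80 FPKM, B16-F1R2 8.27 and 8.34, and B16-F1R2L 10.1 and 9.23 (log2 fold change 0.76 and 0.98, adjusted p = 0.000295 and 0.000103, limma). Fzd4 and Fzd6 rose in both variants as well. Fzd3, at 0.952 and 0.785 FPKM in B16-F1 and 1.37 to 1.60 in the variants, passed the filter only through the latter and its call is not read as a result. Fzd5 fell in B16-F1R2 (log2 fold change -0.42, adjusted p = 0.0461, limma) and was at -0.38 in B16-F1R2L (adjusted p = 0.0625, limma), and Fzd1 was not called. Fzd9 had 1.30 and 1.42 FPKM in B16-F1 and was listed at 0 in all 4 variant libraries; it passed the filter through B16-F1 alone, so its call as lower is not read as a result. Fzd8 had 1.16 and 0.927 FPKM in B16-F1 and was also listed at 0 in the variants, but with 1 library at 1 FPKM it was not tested; it was singled out after its values were seen.

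**Figure D3:**
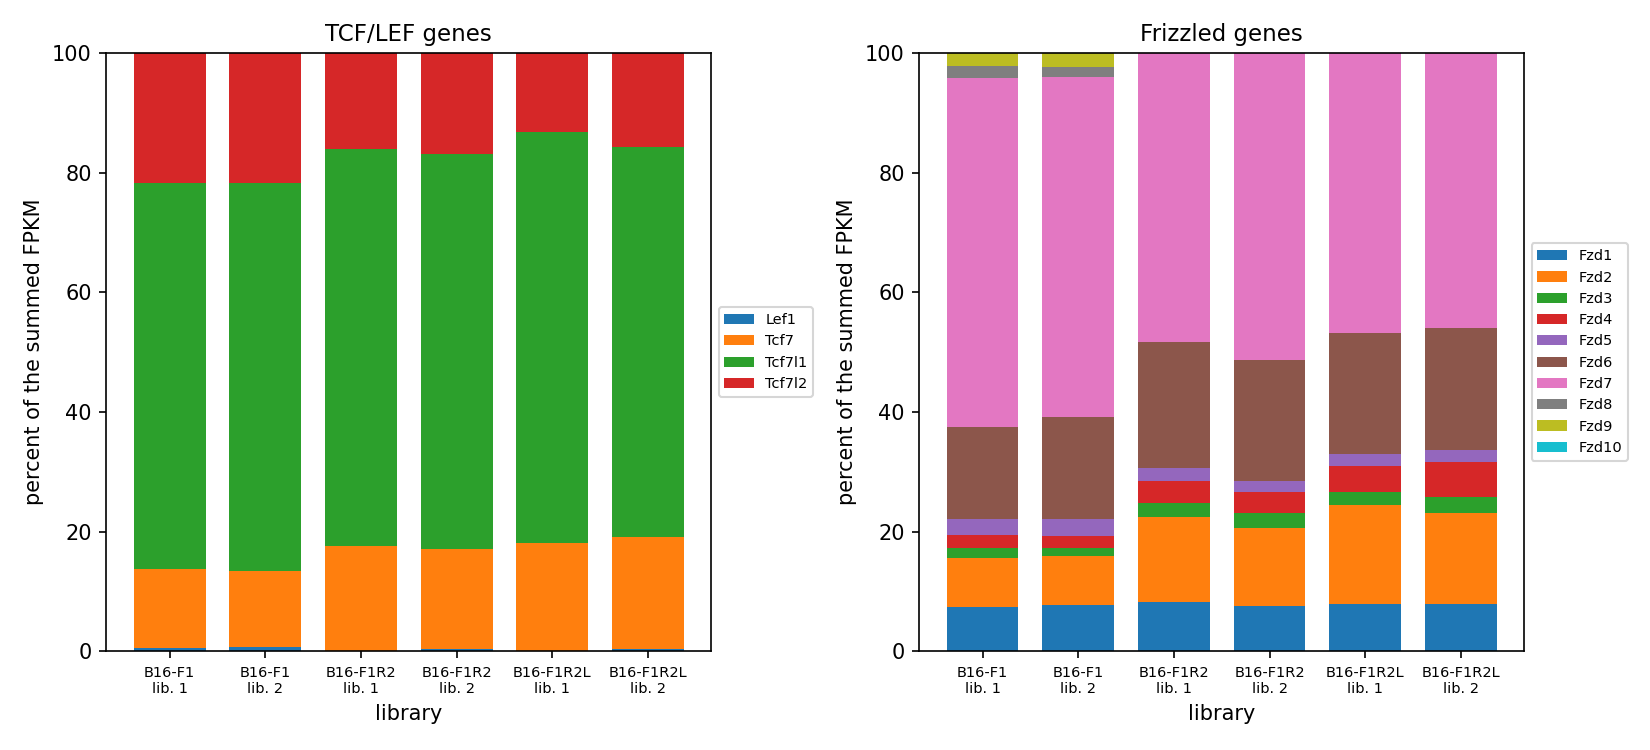
Share of each gene (vertical axis, percent) in the summed FPKM of the 4 TCF/LEF genes (left) and the 10 Frizzled genes (right) in each library. The Tcf7 share is 13.2% and 12.6% in B16-F1 and at least 16.7% in the variants, and Fzd7 falls from 58.4% and 56.8% to between 45.9% and 51.4%.

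The other genes of the pathway were read from a list of 121 genes sorted by role, which includes the 10. Of these 121 genes, 72 entered the test, 48 stayed under 1 FPKM in every library, 19 of them listed at 0 throughout, and Fzd8 reached 1 FPKM in 1 library. In B16-F1R2 against B16-F1, 20 of the 72 (27.8%) were higher and 21 (29.2%) lower, beside 28.2% and 27.2% of all genes tested, with a median log2 fold change of -0.05 against 0.00 for all genes tested. In B16-F1R2L against B16-F1, 25 were higher (34.7%) and 19 lower (26.4%), beside 29.5% and 27.1% of all genes, with a median of -0.02 against 0.02. After quantile normalization 16 were higher and 30 lower. In both comparisons the filter fixed the direction of some called genes, so nothing is read from these shares. These genes were Wnt6, Wnt10a, Wnt5b, Fzd3 and Apc2 as higher, Dkk3, Fzd9 and Lgr6 as lower, and Dact1 as lower in B16-F1R2L. Without library 1 or library 2 of B16-F1 the lower genes numbered 11 and 12 in the first of these comparisons and 10 and 11 in the second. Between the variants 4 were higher (5.56%) and 2 lower (2.78%), beside 12.1% and 10.5% of all genes, with a median of 0.01 against 0.02. These counts and those of all genes moved widely when single libraries were left out, as the closing section gives.

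**Figure D4:**
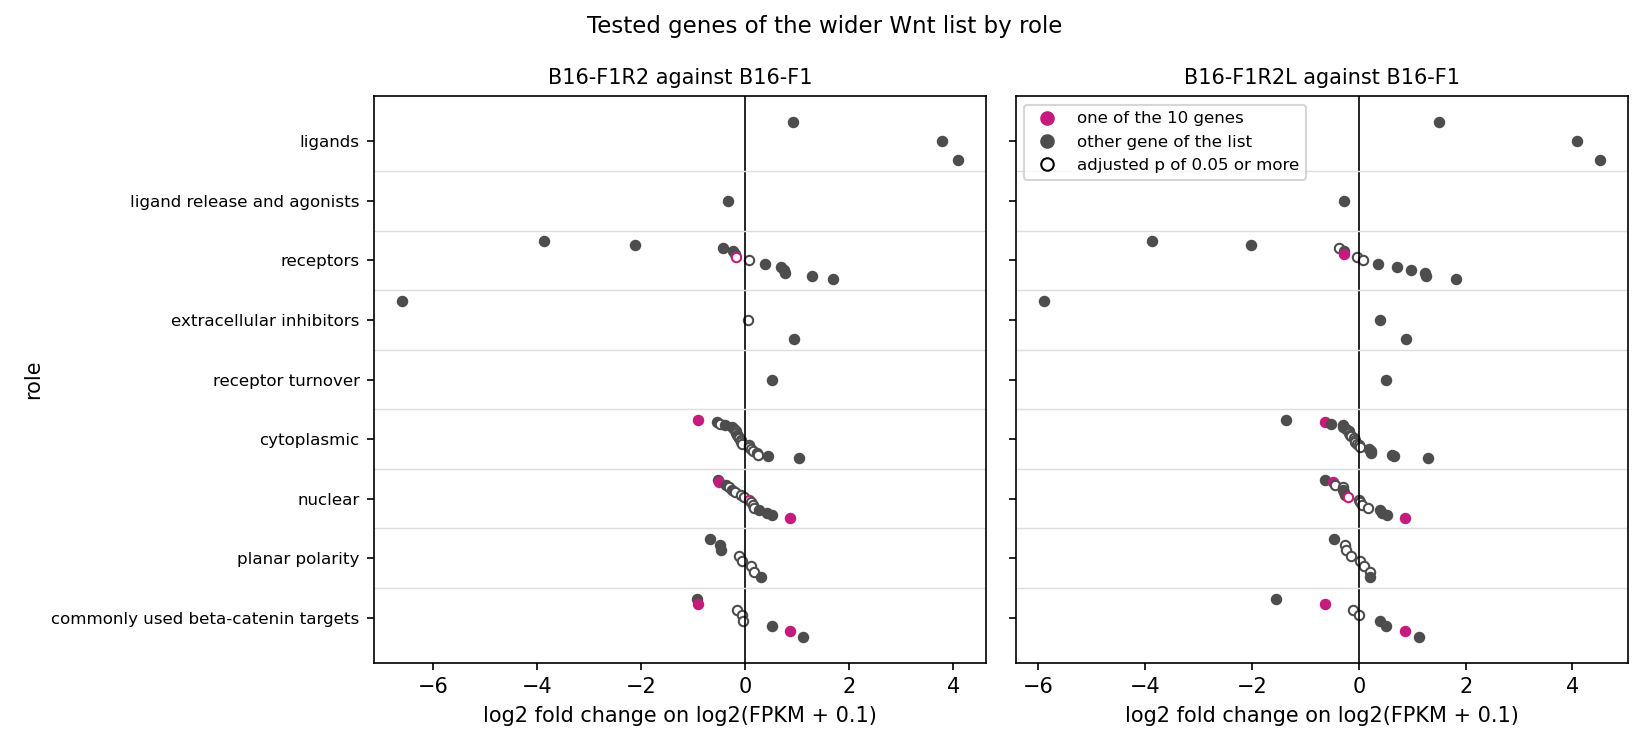
Log2 fold change on the log2(FPKM + 0.1) scale (horizontal axis) of the 72 tested genes of the wider Wnt list in both variants against B16-F1, by role (vertical axis); a gene with 2 roles is drawn in both, and filled points passed the threshold. Dkk3 stands farthest left, at -6.59 and -5.90. The 3 ligands to the right of 0 passed the filter only through the variants. The position of Fzd9, the leftmost receptor, depends on the pseudocount, since Fzd9 was listed at 0 in both variants.

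Of the 19 ligand genes, 16 stayed under 1 FPKM in every library, like Wnt5a. The other 3, Wnt6, Wnt10a and Wnt5b, were under 1 FPKM in both B16-F1 libraries and entered the test only through the variants, so a call could hardly have gone the other way. Their levels are therefore given as a description, with no test. Wnt6 stood at 0.247 and 0.308 FPKM for B16-F1, then 5.24 and 4.89 for B16-F1R2 and lastly 6.92 and 5.77 for B16-F1R2L (log2 fold change 3.78 and 4.09). Wnt10a stood at 0.193 and 0.0675 FPKM for B16-F1, then 3.93 and 3.47 for B16-F1R2 and lastly 5.25 and 4.67 for B16-F1R2L (log2 fold change 4.10 and 4.51). Across the alternatives Wnt6 ran from 2.25 to 4.15 and from 2.52 to 4.47, and Wnt10a from 2.06 to 4.88 and from 2.40 to 5.31, in the order of the variants. Wnt6 and Wnt10a are neighbours on the plus strand of chromosome 1, with 6196 bases between the end of Wnt6 at 74831893 and the start of Wnt10a at 74838090. Their levels in the variants exceed those of Tcf7, Tcf7l2 and Axin2 there. Wnt5b, a ligand related to Wnt5a, stood at 0.706 and 0.462 FPKM for B16-F1, then 1.03 and 1.34 for B16-F1R2 and lastly 1.79 and 1.82 for B16-F1R2L (log2 fold change 0.93 and 1.50, the second 0.58 after quantile normalization).

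Among coreceptors, Lrp5 rose: B16-F1 had 7.34 and 7.34 FPKM, B16-F1R2 24.6 and 23.1, and B16-F1R2L 27.5 and 24.9 (log2 fold change 1.69 and 1.82, adjusted p = 7.6e-06 and 5.5e-06, limma). Lrp6, the other coreceptor, fell in B16-F1R2, with 18.9 and 17.9 FPKM in B16-F1 against 15.6 and 15.6 (log2 fold change -0.23, adjusted p = 0.0236, limma), and gave 17.1 and 18.9 FPKM in B16-F1R2L with a log2 difference of -0.03 (adjusted p = 0.73, limma). Lgr4, a receptor for R-spondins, the secreted proteins that strengthen Wnt signals, rose from 4.70 and 4.32 FPKM to between 10.8 and 11.1 in all 4 variant libraries (log2 fold change 1.28 and 1.25, adjusted p = 2.8e-05 and 2.9e-05, limma). Its relative Lgr6 had 1.62 and 1.64 FPKM in B16-F1 and 0.244 to 0.438 in the variants. It passed the filter only through B16-F1, so its call as lower is not read as a result, and its log2 fold change of -2.11 and -2.01 ran from -3.01 to -1.02 and from -3.03 to -0.98 across the alternatives. Of 13 receptors tested, 6 were higher (46.2%) and 5 lower (38.5%) in B16-F1R2, where all genes gave 28.2% and 27.2%, and 6 were higher and 4 lower (30.8%) in B16-F1R2L, where all genes gave 29.5% and 27.1%. These counts include Fzd3, Fzd9 and Lgr6, whose direction the filter fixed, and nothing is read from their shares. Znrf3, the relative of Rnf43 with the same function, was expressed where Rnf43 was not, at 2.64 and 2.04 FPKM in B16-F1 and 3.04 to 3.65 in the variants (log2 fold change 0.52 and 0.50, adjusted p = 0.028 and 0.0323, limma).

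Of the secreted inhibitors, Dkk3, a divergent member of the Dickkopf family, was present at 13.7 and 13.5 FPKM in B16-F1 and nearly absent from B16-F1R2 (0.0226 and 0.0645) and B16-F1R2L (0.0696 and 0.208). It passed the filter through B16-F1 alone, so its call as lower is not read as a result. The log2 fold change was -6.59 and -5.90, and with 3 of the 4 variant libraries below the pseudocount it ran from -8.11 to -3.80 and from -6.69 to -3.68 across the alternatives. Frzb, a soluble Frizzled-like protein that captures Wnt ligands, rose from 8.34 and 8.48 FPKM to between 15.0 and 16.9 (log2 fold change 0.94 and 0.88, adjusted p = 9.6e-05 and 0.000125, limma). In the cytoplasm, Apc2, a relative of the scaffold APC, passed the filter only through the variants: B16-F1 had 0.548 and 0.520 FPKM, B16-F1R2 1.12 and 1.30, and B16-F1R2L 1.47 and 1.42 (log2 fold change 1.04 and 1.29, the latter 0.24 after quantile normalization), and its call as higher is not read as a result. Dact1, a Dishevelled-binding modulator, had 0.304 and 0.444 FPKM in B16-F1R2L against 1.23 and 1.00 in B16-F1 (log2 fold change -1.37, from -2.53 to -0.62 across the alternatives), with 0.672 and 0.861 in B16-F1R2. It passed the filter only through B16-F1, so its call as lower is not read as a result either, and 1313 of its 3761 exonic bases overlap 4930474H06Rik on the other strand.

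**Figure D5:**
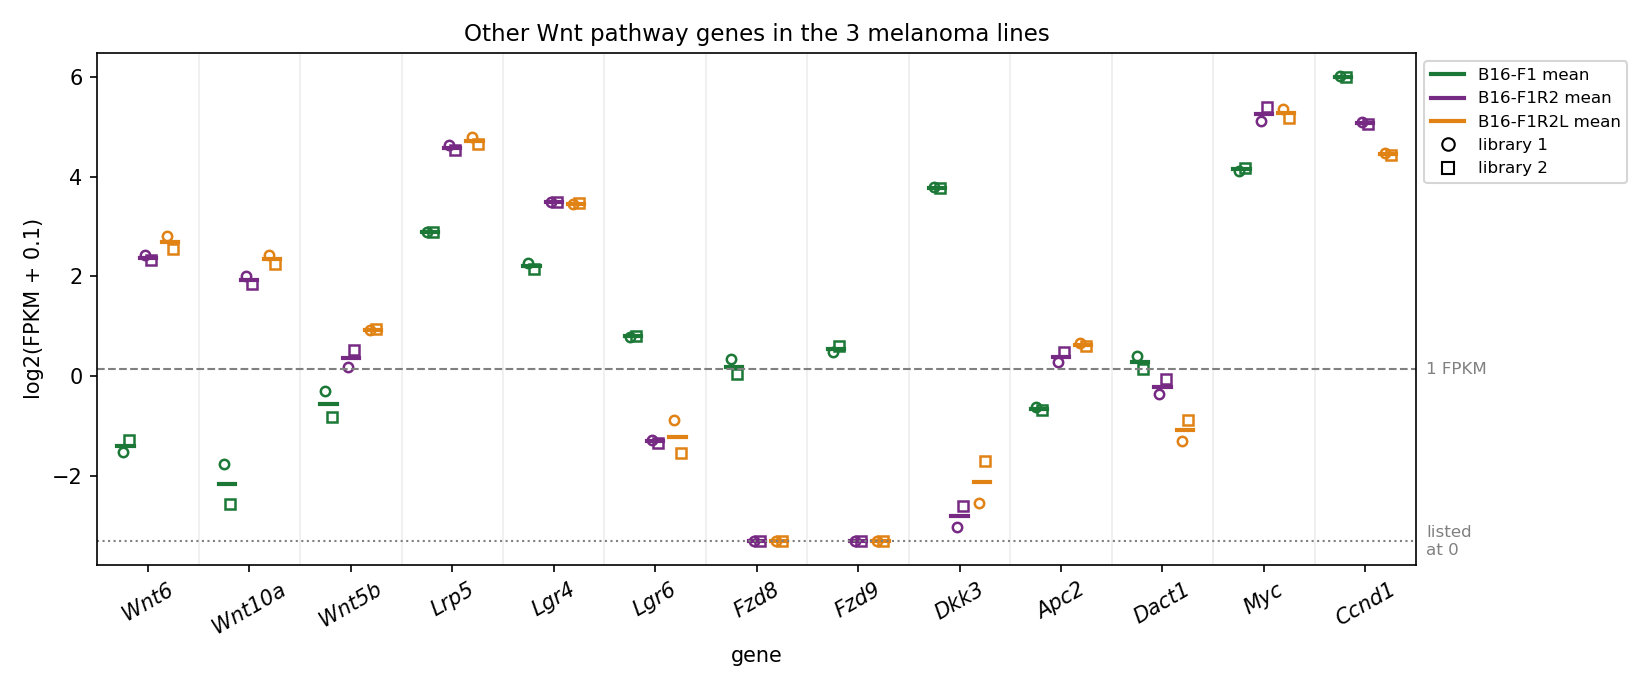
Level on the scale log2(FPKM + 0.1) (vertical axis) of 13 other genes of the pathway in every library, with circles and squares for libraries 1 and 2 and bars for the mean of a line. Wnt6, Wnt10a, Lrp5 and Lgr4 stand higher in both variants than in B16-F1, Dkk3 stands far lower, and Ccnd1 steps down from B16-F1 over B16-F1R2 to B16-F1R2L.

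Of 16 genes often used as readouts of beta-catenin, which include Axin2, Lef1, Tcf7, Nkd1 and Rnf43, 8 were tested, with 3 higher, 2 lower and 3 not called in B16-F1R2, and with 4 higher, 2 lower and 2 not called in B16-F1R2L. These are 37.5% higher and 25% lower in the first comparison and 50% and 25% in the second, beside 28.2% and 27.2%, and 29.5% and 27.1%, of all genes, and 8 genes are too few to set them apart from that background. Myc, the growth-promoting transcription factor, rose: B16-F1 had 17.3 and 18.0 FPKM, B16-F1R2 34.7 and 42.1, and B16-F1R2L 40.9 and 36.0 (log2 fold change 1.11 and 1.12, adjusted p = 0.000241 and 0.000238, limma). Ccnd1, which encodes cyclin D1, fell like Axin2: B16-F1 gave 64.5 and 63.7 FPKM, B16-F1R2 33.9 and 33.2, and B16-F1R2L 22.1 and 21.4. It differed in all 3 comparisons, with log2 fold changes of -0.93, -1.56 and, between the variants, -0.63 (adjusted p = 1.4e-05, 2.0e-06 and 0.00133, limma), and 818 of its 3835 exonic bases overlap Oraov1 on the other strand. Mitf, the melanocyte regulator, was at 92.3 and 88.7 FPKM for B16-F1, then 79.5 and 83.6 for B16-F1R2 and lastly 111.8 and 127 for B16-F1R2L. It was higher in B16-F1R2L than in either other line (log2 fold change 0.40 and 0.55, adjusted p = 0.00315 and 0.00656, limma). The other melanocyte markers (Sox10, Mlana, Pmel, Tyr, Tyrp1 and Dct) were all called lower in B16-F1R2L against B16-F1. Their log2 fold changes ran from -2.99 for Tyr to -0.39 for Sox10. Between the variants Tyr and Dct were called higher in B16-F1R2L (0.71 and 0.39) and the rest of these were not called.

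Beside Ccnd1 and Mitf, 4 genes of the list were called between the variants, with smaller differences than either. Dact1 was at -0.88 without a call (adjusted p = 0.0539, limma), and Dkk3 and Wnt5b at 0.69 and 0.57 were not called either. Gsk3b, the kinase that marks beta-catenin, stood at 15.9 and 17.3 FPKM for B16-F1R2 against 20.8 and 21.9 for B16-F1R2L (log2 fold change 0.36, adjusted p = 0.0144, limma), near the 22.2 and 21.4 of B16-F1. Daam1, a formin of the beta-catenin-independent arm, was 12.9 and 12.7 against 15.9 and 16.6 FPKM (log2 fold change 0.34, adjusted p = 0.00983, limma). Both calls were lost without library 1 of B16-F1R2 or library 2 of B16-F1R2L, with adjusted p of at most 0.0742 and 0.0559 from limma. Csnk1e (log2 fold change 0.18, adjusted p = 0.0285, limma) and Dact3 (-0.30, adjusted p = 0.0424, limma) were called too, but kept the call in 8 and 6 of 16 alternatives. When FPKM were rescaled to a common sum, which moved the median of all genes between the variants from 0.02 to 0.13, 9 genes of the list were higher and 1 lower.

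Some genes outside the pathway followed the detected members closely across the 6 libraries. Nearness was measured as the Euclidean distance between profiles of log2(FPKM + 0.1) centred on their mean, for the 3 members with the widest range of line means. The nearest to Axin2 were Rps6ka6, Spg21 and Narfl (distance 0.127, 0.172 and 0.175), to Tcf7 2310022B05Rik, Ankrd32 and Mdp1 (0.060, 0.079 and 0.087), and to Ctnnb1 Mfsd11, D17H6S53E and Calu (0.038, 0.047 and 0.056). Calu, for example, stood at 239.7 and 242 FPKM for B16-F1, then 177 and 175 for B16-F1R2 and lastly 171 and 175 for B16-F1R2L. With 6 libraries of 3 lines, such likeness describes the order of the lines and little more.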

How the data were processed

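Polyadenylated RNA was sequenced by the authors with a stranded kit in single-end reads of 50 bases. Per the labels and the study's methods, reads were checked with FastQC 0.10.1 and aligned to NCBI37/mm9 with TopHat 2.0.10, Bowtie 1.0.0 and SAMtools 0.1.1.9, allowing 2 mismatches and 20 positions per read. The authors deposited FPKM, 1 table with all 6 libraries and no pooling. The submitters' processing notes also name Cuffnorm and DESeq2; the gene annotation and the strand setting of the counting are not given in the sources used here, so reads of genes that overlap on opposite strands may not be told apart. FPKM are not counts, so no count test was run.

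Here, log2(FPKM + 0.1) was fitted with limma 3.58.1 in R 4.3.3 (eBayes with a trend, no block) over all 6 libraries, keeping genes that reached 1 FPKM in 2 or more libraries, with Benjamini-Hochberg adjustment; the fit was tested on simulated data. Positions came from NCBIM37 with its GENCODE annotation and promoters from RefSeq (GRCm38.p6). Depth is not stated for these libraries: whole multiples among the lowest FPKM of genes with 1 transcript put it at roughly 12550000 to 14850000 reads, with 37% to 47% of those values within 0.1 of a whole read, so the worth of 1 read is approximate and no counting interval was computed.

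The 10 genes, the list of 121 and the markers were chosen with earlier results of these data known. Beside the 10, the text names up to 5 list genes per direction and comparison with the largest fold change among those called without overlap, plus genes said to be singled out later; Fzd1, Fzd2, Fzd3, Fzd4, Fzd5, Fzd6, Lrp6, Frzb, Znrf3, Axin1, Tcf7l1 and, in the closing section, the planar polarity genes were added with their values known. The settings varied were the pseudocount (1 and 0.01), the filter (none, 5 FPKM), the scaling, the trend, a replicate block, only the 4 libraries compared, a minimum log2 fold change of 1, and leaving out each library. Python 3.11.15 drew the figures.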

Additional observations from a re-analysis of the deposited data

How the results depend on the processing

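Ctnnb1, Axin2 and Tcf7 kept their direction and, except with a minimum log2 fold change of 1, their call in both variants against B16-F1 under the alternatives that tested them: Ctnnb1 from -0.60 to -0.48 and -0.51 to -0.38, Axin2 from -1.04 to -0.72 and -0.92 to -0.50, and Tcf7 from 0.58 to 0.90 and 0.41 to 0.98. Differences that were not called and changed sign, in no case with a call, were Tcf7l2 in B16-F1R2 against B16-F1 (-0.12 after quantile normalization, from -0.0077 to 0.16 with each library left out) and, between the variants, Ctnnb1 (-0.0045 with median-of-ratios scaling, -0.00053 and -0.016 without library 2 of B16-F1R2 or B16-F1R2L, at most 0.047 with a library left out), Tcf7 (-0.018 and -0.17 with median-of-ratios scaling and quantile normalization, -0.0068 and -0.011 without library 1 of B16-F1R2 or B16-F1R2L, at most 0.016) and Fzd7 (0.0045 rescaled to 1000000, 0.0036 without library 2 of B16-F1R2, at least -0.21).

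A minimum log2 fold change of 1 left 819 higher and 328 lower genes in B16-F1R2 against B16-F1 (3207 and 3098 without it). It left 957 and 259 in B16-F1R2L against B16-F1 (3361 and 3086) and 116 and 24 between the variants (1378 and 1190). The list gave 6 and 3, 8 and 5, and 0 and 0, and of the 10 genes 0 were called. Among these list genes the filter fixed the direction of Wnt6, Wnt10a, Apc2 and, in B16-F1R2L, Wnt5b as higher. It also fixed that of all the lower ones except Ccnd1 in B16-F1R2L. Fewer genes are tested with the filter of 5 FPKM, which drops Tcf7, Tcf7l2 and Axin2: of the 10 genes it left 0 higher and 1 lower in B16-F1R2 and 0 higher in B16-F1R2L, and of the list 12 and 16 higher. Rescaling to 1000000 gave 4075 higher genes and 2043 lower ones in B16-F1R2L against B16-F1 and 2079 and 489 between the variants, with 9 and 1 of the list, and it moved the medians of all genes to 0.12 and 0.13. Quantile normalization gave 16 and 30 of the list for B16-F1R2L against B16-F1 and 1 of the 10 genes lower between the variants. Between the variants, dropping the filter left 743 lower genes and dropping the trend 650; of the list 1 was lower, not 2, with no filter, with the 4 libraries only and with the replicate block. The cause was not tested.

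With each library left out, the genes higher and lower were 2547 to 3180 and 2277 to 3169 (B16-F1R2 against B16-F1), 2643 to 3237 and 2158 to 3000 (B16-F1R2L against B16-F1) and 317 to 1051 and 155 to 1038 between the variants, lowest without library 1 of B16-F1R2. The list ranged from 14 to 21 and 11 to 22, 18 to 23 and 10 to 19, and 1 to 6 and 1 to 1; the 10 genes from 1 to 1 and 2 to 3, 1 to 1 and 2 to 3, and 0 to 0 in both directions. The line left with 1 library is then assumed to vary like the others. Whether library numbers pair the samples is not stated. Deviations of same-numbered libraries correlated at 0.052, -0.10 and 0.079 between lines, which does not settle it. The replicate block gave 3141 and 3040, 3299 and 3031, and 1217 and 1104 genes, and moved no call of the 10.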

Other observations

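The planar polarity branch of the pathway, which orients cells without beta-catenin, had 8 tested genes, of which only Daam1 was described above. B16-F1R2 had 1 higher (12.5%) and 3 lower (37.5%) against B16-F1, beside 28.2% and 27.2% of all genes tested, and B16-F1R2L had 1 of each (12.5%), beside 29.5% and 27.1%. Daam1 fell in B16-F1R2 (log2 fold change -0.49, adjusted p = 0.000424, limma), with 18.0 and 17.9 FPKM in B16-F1, and was at -0.14 in B16-F1R2L (adjusted p = 0.054, limma). Prickle1, a cytoplasmic polarity protein, was the most abundant and rose: B16-F1 gave 63.3 and 60.1 FPKM, B16-F1R2 76.0 and 76.1, and B16-F1R2L 72.2 and 71.0 (log2 fold change 0.30 and 0.22, adjusted p = 0.00145 and 0.00588, limma). Vangl1, a membrane protein of the same system, fell from 6.20 and 6.17 FPKM to between 4.08 and 4.88 in the variants (log2 fold change -0.47 and -0.46, adjusted p = 0.00925 and 0.00954, limma). Prickle2 fell in B16-F1R2, to 0.822 and 0.824 FPKM against 1.37 and 1.39 in B16-F1 (log2 fold change -0.68, adjusted p = 0.0101, limma). B16-F1R2L had 1.16 and 1.13 FPKM. Across the alternatives the Prickle2 fold change in B16-F1R2 ran from -1.61 after quantile normalization to -0.38 with a pseudocount of 1. The call was lost without library 1 (-0.69) or library 2 (-0.67) of B16-F1. The difference between the variants was not called (adjusted p = 0.0924, limma). Wls, the carrier that brings Wnt ligands to the surface, was abundant and fell from 74.2 and 72.0 FPKM to between 57.0 and 62.0 (log2 fold change -0.32 and -0.28, adjusted p = 0.00227 and 0.0039, limma), and Ctbp1, a corepressor, fell from 139.6 and 140.5 FPKM to between 86.3 and 99.4 (log2 fold change -0.52 and -0.64, adjusted p = 0.000312 and 0.000136, limma). Both were singled out after their values were seen.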
